A study of Mus musculus with 4 samples.

Results

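Neutrophils are short-lived white blood cells that patrol the circulation and enter tissue at sites of injury or infection. They follow chemokines through the receptor Cxcr2, adhere to vessel walls through integrins, and carry granules with enzymes such as the gelatinase Mmp9. Their cytoplasm is rich in the calcium-binding alarmins S100a8 and S100a9, which together form calprotectin. In brains with amyloid plaques they are a minor immune population beside microglia, the resident macrophages of the brain.

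Neutrophils were selected on measured values, as cells with reads of both S100a8 and S100a9, reads of 2 or more of Mmp9, Cxcr2, Clec4d, Clec4e and Trem1, and no read of Trem2, a receptor of microglia. There were 97 such cells among 13820 cells kept by a filter (0.702%), out of 21172 cells deposited. A single library was made from each of 4 male mice at 9 months of age, and all 4 were 5XFAD. In 2 of them the Abi3 locus was deleted in every cell (Abi3-/-), and 2 had both copies (Abi3+/+). The 5XFAD transgenes carry familial Alzheimer's disease mutations, lead to amyloid plaques and are expressed under the neuronal Thy1 promoter, and no mouse without them was compared. Mice were perfused, the right hemisphere without the cerebellum was dissociated in the cold with Accutase, myelin was removed without sorting by cell type, and transcripts of a 397-gene mouse immune panel were counted in single cells. Abi3 is not a gene of the panel, so the deletion could not be checked in these counts. The study asked how loss of Abi3, a gene linked to Alzheimer's disease risk, changes the immune cells of this model.

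The 4 libraries held 61058416 to 102612276 reads in 2321 to 4499 kept cells. A kept cell had at least 40 genes with a read and at most 59300 reads. Reads were not collapsed to molecules, so the reads of a cell are not independent, and all intervals below are exact Clopper-Pearson 95% intervals that cover counting error only. The limit given for a count of 0 is not such an interval but 3 cells of the total. It concerns the share of cells with a detected read, not the share that express the gene. Between 17 and 42 cell labels were shared by each pair of libraries, and 0 of them belonged to neutrophils in both.

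Neutrophils were unevenly spread over the mice. The Abi3-/- mice held 4 and 69 of them, and the Abi3+/+ mice held 5 and 19. Abi3-/- replicate 2 thus supplied 71.1% of all neutrophils, and both mice numbered 2 together supplied 90.7%. As a share of kept cells, neutrophils made up 0.172% (interval 0.0470 to 0.441%) and 1.53% (1.20 to 1.94%) in the Abi3-/- mice. In the Abi3+/+ mice they made up 0.132% (0.0428 to 0.307%) and 0.593% (0.357 to 0.925%). The genotypes overlapped, since both mice numbered 1 were low and both mice numbered 2 were high.

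The mean share was 0.853% ± 0.963 (SD, n = 2) in Abi3-/- mice and 0.362% ± 0.326 (SD, n = 2) in Abi3+/+ mice. The difference of 0.491 percentage points was within the spread between mice (two-sided exact permutation test over 4 mice, p = 0.667), in a design whose smallest possible p is 0.333. Without Abi3-/- replicate 2 the difference turned to -0.190 points, so its direction rested on that mouse.

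**Figure D1:**
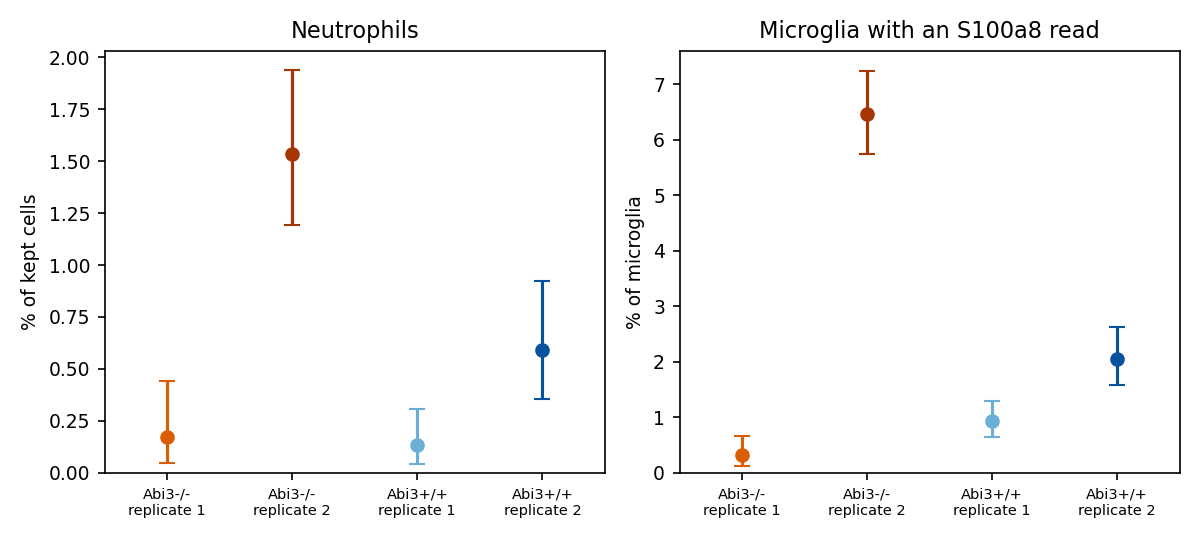
The left panel plots neutrophils as a percentage of kept cells in each mouse, and the right panel plots microglia with an S100a8 read as a percentage of microglia. Points are single mice and bars are exact 95% intervals. Abi3-/- replicate 2 stands highest in both panels, at 1.53% and 6.47%, followed by Abi3+/+ replicate 2 at 0.593% and 2.05%.

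The genes of the rule are given as a description. S100a8 reads per neutrophil ranged from 27 to 42561 with a median of 16936, and S100a9 reads from 18 to 949 with a median of 225. By mouse, the median number of S100a8 reads was 6069.5 and 16730 for Abi3-/- and 26119 and 22338 for Abi3+/+. S100a8 lies on chromosome 3 at positions 90669071 to 90670034 and S100a9 nearby at 90692630 to 90695721 (mm10, RefSeq annotation of GRCm38.p6). Mmp9 had a read in all 97 neutrophils. Cxcr2, the receptor for neutrophil-attracting chemokines, had a read in 96.9% of them, and so had the C-type lectin Clec4d. Trem1, an activating receptor, was detected in 68%, and Clec4e, which recognises mycobacterial and damage-related lipids, in 60.8%.

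Few cells lay near the marker threshold. Every one of the 97 Trem2-negative cells with both S100 genes also had 2 or more of the 5 further markers. Of these cells, 1 had 2 markers, 15 had 3, 42 had 4 and 39 had 5. Outside the rule lay 13 cells that met all of it but for reads of Trem2 (20 to 1135 reads, median 85), 12 of them from Abi3-/- replicate 2 and 1 from Abi3+/+ replicate 1. The complement gene C1qa, a microglial gene, was detected in 10 of these 13 cells and in 5 of the 97 neutrophils. A further 22 Trem2-negative cells had reads of only 1 of the S100 genes, and 4 of them had 2 or more further markers. When kept cells were clustered on all genes, all 97 neutrophils fell into 1 of 17 clusters, which held 114 cells. The clustering used the genes of the rule too, so this is a description and not a check of the rule. Of the 17 other cells in it, 12 had a Trem2 read and 11 had reads of both S100 genes.

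The label was checked against markers of other cell types. Of the 8 macrophage and monocyte markers, 6 were at 0 in all neutrophils, among them Ccr2, Clec10a, F13a1 and Cd163, and the exceptions were Itga4 and Flt3. The summed level of these 8 was 29.3 and 12.1 reads per 10000 other than S100a8 in Abi3-/- neutrophils and 5.19 and 7.43 in Abi3+/+. It was lower in microglia of every mouse, at 2.73 and 6.60 in Abi3-/- and 2.10 and 2.98 in Abi3+/+. Of the 8 T cell markers 7 were at 0, and of the 6 B cell markers 5 were at 0. Cpa3, Fcer1a, Kit and Ccr3, markers of mast cells, basophils and eosinophils, had no read, while the red cell gene Alas2 was at 2.48 reads per 10000 in neutrophils of Abi3-/- replicate 2 and at 0 in the other mice. The summed level of 10 microglia markers was 242 to 564 reads per 10000 in neutrophils against 1861 to 2807 in microglia, counted per 10000 reads other than those of S100a8. This list includes Trem2, which the rule sets to 0 in neutrophils. Of these 10 markers 9 had a read in some neutrophil, from Selplg, which leukocytes share, in 85.6% to C1qa in 5.15% and Cx3cr1 in 1.03%. Their part in the values below was not tested. Cxcr1, a second chemokine receptor, was seen in 4 of 97 neutrophils, all in Abi3-/- replicate 2.

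Reads of S100a8 also appeared in cells that should lack the gene. S100a8 had a read in 0.319% and 6.47% of Abi3-/- microglia and in 0.925% and 2.05% of Abi3+/+ microglia, at median depths of 19802.5 to 24765.5 reads per cell. The median number of reads in these microglia was 19, 24, 21 and 64, far below the medians in neutrophils. The highest shares were in the mice numbered 2, which also had most neutrophils. S100a9 was found in at most 0.398% of the microglia of any mouse. That share was 17 cells of Abi3-/- replicate 2, with a median of 198 S100a9 reads against 220 in its neutrophils. The 12 cells of that mouse that met the rule but for Trem2 reads count as microglia here. The neutrophil with fewest S100a8 reads, in Abi3-/- replicate 1, had 27, within the range of the S100a8 medians in microglia.

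The upper read limit acted strongly on these cells. At any depth 191 cells met the marker rule, and 93 of them (48.7%) had more than 59300 reads, against 9.78% of all Trem2-positive cells. In the Abi3-/- mice 2 of 6 and 51 of 120 were over the limit, and in the Abi3+/+ mice 3 of 8 and 37 of 57. S100a8 alone accounted for a median of 35.9% and 57.6% of the reads of kept Abi3-/- neutrophils and 63.1% and 62.6% for Abi3+/+. In the cells over the limit these medians were 71.9 to 79.2%. If S100a8 reads are not counted, 87 of the 93 cells would lie within the limit. With these cells kept, the difference in share between genotypes was 0.475 points (exact permutation p = 0.667, n = 2 per genotype).

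**Figure D2:**
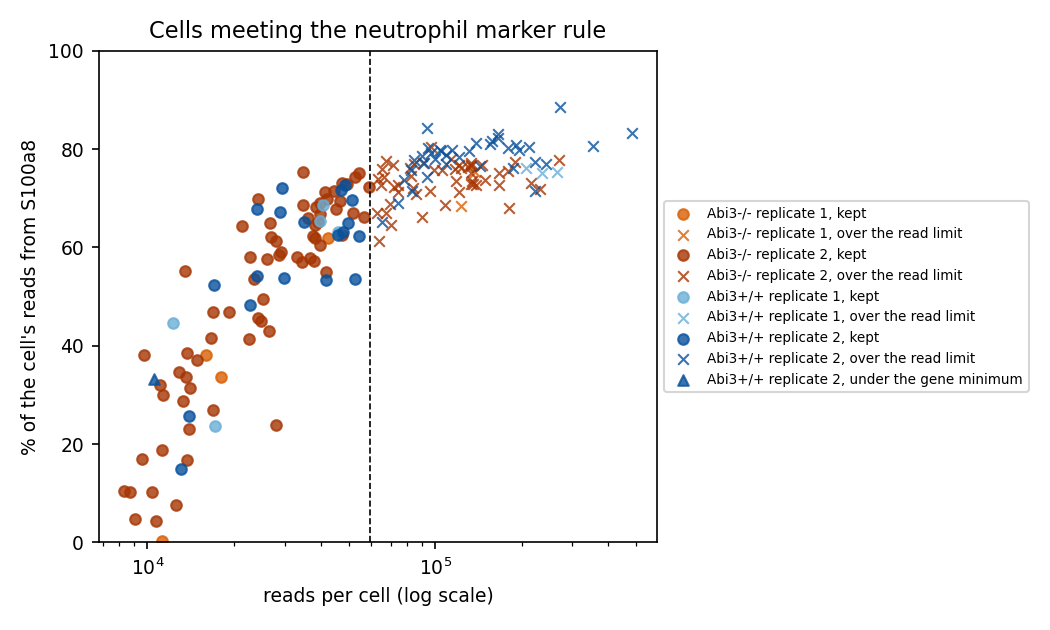
Each symbol is a cell that met the marker rule, with its reads on a log scale against the percentage of those reads that came from S100a8; the dashed line is the limit of 59300 reads. Circles are the 97 kept neutrophils and crosses the 93 cells over the limit, whose median S100a8 percentage is 71.9 to 79.2 by mouse.

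The neutrophils differed among themselves in the amount of S100a8. In Abi3-/- replicate 2, S100a8 made up between 4.31 and 75.3% of a cell's reads, with a median of 35.9% in the cells below that mouse's median depth and 66% in the others. This depth counts the S100a8 reads themselves, so cells rich in S100a8 tend to fall in the deeper part by construction. The Spearman correlation of the S100a8 percentage with the other reads of the cell was 0.41 over these 69 cells and -0.06 over the 19 cells of Abi3+/+ replicate 2. Both quantities share the cell's capture and sequencing depth, so these are descriptions of 2 libraries. Other transcripts varied as widely, and in Abi3-/- replicate 2 Lyz2 ran from 0 to 5518 reads per cell (median 1382), Ccl6 from 0 to 3583 (median 687) and Il1b from 0 to 1629 (median 263). Cxcr2 and Cxcr4 were found together in 80 of the 97 neutrophils, and Clec4d and Clec4e, which lie side by side on chromosome 6, in 56. Because S100a8 took so many reads, levels of other genes are given per 10000 reads other than S100a8. The fitted log2 folds count S100a8 and use TMM scaling, so a fold printed beside levels need not equal their ratio.

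Receptor and adhesion genes differed from microglia in both directions. The comparison used reads summed per mouse and class, with microglia defined as the 13160 kept cells with a Trem2 read, and edgeR's quasi-likelihood test with the mouse as a block. Outside the genes of the rule, 307 genes were tested, of which 21 (6.84%) were higher and 85 (27.7%) lower in neutrophils at an adjusted p below 0.05. The adjustment also covered the genes of the rule, which differ by construction, and this can lower the adjusted p of the others. Of 17 receptor and adhesion genes tested, 6 were higher (among them Ccr1, Cd44, Cxcr4, Fas and Il1r2) and 6 lower (Icam1, Ifngr1, Il6ra, Itgam, Selplg and Tnfrsf1b), of which Il6ra, Itgam and Tnfrsf1b were not lower per 10000 reads in every mouse. Over all genes, 19 of the 21 higher and 69 of the 85 lower calls had the same direction per 10000 reads in every mouse. The median log2 fold of this list was -0.85, against -7.13 over all 307 genes, or -4.08 with genes at 0 in neutrophils set at 3 reads over the class. A cell with a transcript often held more than 3 reads of it, so this setting is a convention and no strict bound.

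Il1r2, the decoy receptor that binds interleukin-1 without signalling, was detected in 75, 63.8, 20 and 57.9% of neutrophils. It was detected in 0.163 to 0.468% of microglia (log2 fold 6.95 ± 0.80, edgeR adjusted p = 0.00753). Thinning each cell to 10000 reads left shares of 62% in neutrophils and 0.338% in microglia over all mice. Cd44, a receptor for hyaluronan, was at 75, 84.1, 100 and 84.2% in neutrophils and at 1.5 to 2.67% in microglia (log2 fold 5.25 ± 0.66, edgeR adjusted p = 0.00890). Every mouse thus had these genes in far more neutrophils than microglia, although Il1r2 rested on a single positive cell of 5 in Abi3+/+ replicate 1.

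Ccr1, a chemokine receptor for Ccl3 and related ligands, was found in 100, 97.1, 100 and 89.5% of neutrophils against 10.8, 2.30, 1.47 and 2.75% of microglia. Cxcr4, which retains neutrophils in bone marrow and is known to rise as they age, was found in 75, 88.4, 60 and 78.9% of neutrophils and in 2.04 to 6.04% of microglia. Fas, a death receptor, was present in 50, 40.6, 60 and 21.1% of neutrophils and in at most 1.05% of microglia. C5ar1, the receptor for complement C5a, was detected in 60 to 100% of neutrophils and 34.1 to 38.8% of microglia, and its difference missed the threshold (log2 fold 1.23 ± 0.50, edgeR adjusted p = 0.0967). Itgam, the integrin CD11b, was lower in the test but was above the microglial level in Abi3-/- replicate 2, at 85.6 against 74.8 reads per 10000.

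Among the secreted factors, Il1b and Il1rn were higher and Il1a lower than in microglia. Of 21 cytokine and chemokine genes tested, 5 were higher in neutrophils than in microglia (Il1b, Il1rn, Cxcl2, Ccl6 and Tnfsf14) and 4 lower (Il1a, Cxcl16, Ccl2 and Ccl4). Over all genes 6.84% were higher and 27.7% lower. The list's median was -6.85, and -6.55 with genes at 0 set at 3 reads. Il1b, the inflammatory cytokine interleukin-1β, had a read in 100, 76.8, 80 and 100% of neutrophils and in 3.87, 7.17, 2.56 and 2.65% of microglia. Its level was 750, 304, 480 and 402 reads per 10000 in neutrophils and 0.757 to 3.78 in microglia (log2 fold 6.43 ± 0.75, edgeR adjusted p = 0.00753).

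Il1rn, which encodes the antagonist of the interleukin-1 receptor, was found in 75, 73.9, 80 and 78.9% of neutrophils and in 0.245 to 1.38% of microglia (log2 fold 5.06 ± 0.73, edgeR adjusted p = 0.00988). Both genes had a read in 59 of the 97 neutrophils, Il1b alone in 21, Il1rn alone in 14 and neither in 3. The other interleukin-1 agonist, Il1a, had no read in any neutrophil, against 40.8 to 57.7% of microglia (edgeR adjusted p = 0.0202). That allows a share of up to 3.09% of cells with a read over all mice, and 75, 4.35, 60 and 15.8% by mouse.

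Cxcl2, a ligand of Cxcr2, was found in 0, 33.3, 40 and 26.3% of neutrophils and in at most 0.281% of microglia (log2 fold 7.61 ± 0.99, edgeR adjusted p = 0.0119). Abi3-/- replicate 1, with 4 neutrophils, had no Cxcl2 read in either class. Cxcl2 and Il1b were found together in 23 of 97 neutrophils, and 7 had Cxcl2 alone. Ccl6, a chemokine of myeloid cells, was at 493, 701, 438 and 820 reads per 10000 in neutrophils and 31.7 to 44.3 in microglia (log2 fold 1.93 ± 0.39, edgeR adjusted p = 0.0194). Tnfsf14, the cytokine LIGHT, was in 20 to 75% of neutrophils and at most 0.351% of microglia. Tnf had a read in 5 of 97 neutrophils, and Il6, Il10 and Cxcl1 in 0.

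**Figure D3:**
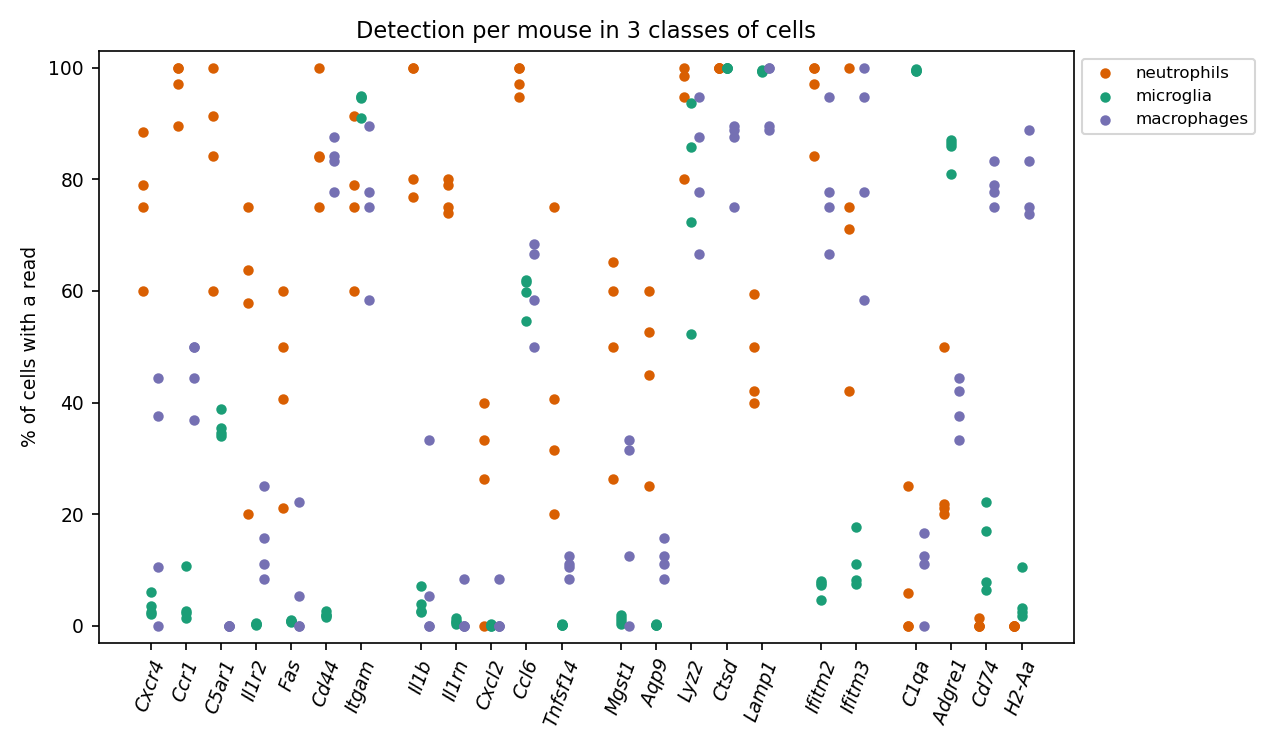
Points give the percentage of cells with a read in each of 4 mice, for neutrophils, microglia and the Trem2-negative macrophage class. Il1rn, Aqp9 and Cxcr4 lie above both other classes in every mouse, whereas Cd74 and H2-Aa are at or near 0 in neutrophils. Aqp9 and Cxcr4 did not pass the edgeR test against the macrophage class.

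Of 11 granule and enzyme genes tested, 2 were higher (Mgst1 among them) and 5 lower (Cd63, Ctsd, Fth1, Lamp1 and Slc11a1) than in microglia, against 6.84% and 27.7% over all genes, with a median of -3.08. Mgst1, a membrane glutathione transferase, was in 50, 65.2, 60 and 26.3% of neutrophils and 0.410 to 1.89% of microglia. Aqp9, a water and glycerol channel outside the list, was in 25 to 60% of neutrophils and at most 0.245% of microglia (log2 fold 7.12 ± 0.99, edgeR adjusted p = 0.00939).

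The lysosomal protease Ctsd was at 299.7, 338, 232 and 212 reads per 10000 in neutrophils and 2292 to 3205 in microglia (log2 fold -5.26 ± 0.30, edgeR adjusted p = 0.00185). Lamp1, a lysosome membrane protein, was likewise lower (log2 fold -4.64 ± 0.41, edgeR adjusted p = 0.00546), with 40 to 59.4% of neutrophils and 99.2 to 99.6% of microglia positive. Lyz2, lysozyme, did not pass the test (log2 fold 0.74 ± 0.60, edgeR adjusted p = 0.298) and was in 80 to 100% of neutrophils and 52.3 to 93.6% of microglia. Fth1, a ferritin chain, was called lower but stood at 561 to 776 reads per 10000 in neutrophils and 370.1 to 494 in microglia, so its direction depends on the scaling. Qpct, a glutaminyl cyclase, had no read in any of the 97 cells.

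Ifitm2 and Ifitm3, which restrict entry of viruses, were the 2 interferon genes of 10 that were higher, and none was lower, against 6.84% and 27.7% over all genes. The list's median was -1.83, and -1.50 with genes at 0 set at 3 reads. Ifitm2 was in 100, 97.1, 100 and 84.2% of neutrophils against 4.63 to 8.04% of microglia (log2 fold 5.03 ± 0.47, edgeR adjusted p = 0.00546). Ifitm3 was in 75, 71, 100 and 42.1% against 7.49 to 17.7% (log2 fold 1.94 ± 0.53, edgeR adjusted p = 0.0402). Irf7, the transcription factor of the interferon response, was in 15.9 to 75% of neutrophils and 3.41 to 7.97% of microglia, and missed the threshold (edgeR adjusted p = 0.0837).

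Clec4d, Clec4e and Trem1, genes of the rule, are left out of the next counts. Of 20 other genes for sensing microbes 0 were higher and 11 lower, against 6.84% and 27.7% over all genes, with a median of -3.14. Tlr7, a sensor of single-stranded RNA, had a read in 3.09% of neutrophils over all mice and 65.8 to 70% of microglia. Tmem173, the adaptor STING, and Tlr3, a sensor of double-stranded RNA, had no read in any neutrophil but were in 83.9 to 91.0% and 37.6 to 42.8% of microglia (edgeR adjusted p = 0.0178 and 0.0284). Myd88, the adaptor of most Toll-like receptors, was in 50 to 80% of neutrophils and 44.5 to 53.6% of microglia and did not pass (log2 fold -0.34 ± 0.51, edgeR adjusted p = 0.551). Fcer1g, called lower, changed sign when S100a8 was left out and libraries were scaled by their reads alone.

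The other lists are given as counts, beside the same 6.84% higher and 27.7% lower over all genes. Of 17 survival and activation genes none was higher and 7 were lower (median -4.84), among them Jun, Egr1, Bax and Bcl2. Junb, also among the 7, changed sign with the same rescaling. Of 10 immaturity and cycling genes tested, 7 were at 0 in neutrophils and 2 (Cd34 and Pcna) were lower. Elane, a protease of neutrophil precursors, and the proliferation genes Mki67 and Top2a had no read in the 97 cells. The class II genes H2-Aa and H2-DMa and the costimulator Cd86 were at 0 in neutrophils (edgeR adjusted p = 0.0242, 0.0186 and 0.0200). Cmklr1, the chemerin receptor, and Fscn1, an actin-bundling protein, were likewise at 0, against 73.3 and 84.7% of all microglia (edgeR adjusted p = 0.0186 for each).

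The number of calls varied with the mice included. Without Abi3-/- replicate 1, which had 4 neutrophils, there were 97 calls, 75 of them among the 106. Without Abi3-/- replicate 2 only 10 of the 106 calls remained, and without Abi3+/+ replicate 1 or 2 there were 39 and 33, while none of the 106 genes changed sign in these fits. Within the 2 mice that had 19 and 69 neutrophils, 13 genes were higher and 49 lower. Leaving S100a8 out and scaling by reads alone moved the median fold of all genes from -7.13 to -5.15 and gave 33 higher and 39 lower genes, with Fcer1g, Fth1, Gapdh and Junb changing sign among the 106.

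The second comparison was with 48 Trem2-negative cells that carried 2 or more of Ccr2, Clec10a, F13a1, Cd163 and Kcne3, here called the macrophage class. These cells also carried Flt3 (70.8%), H2-Aa (79.2%) and Ccl17 (20.8%), which dendritic cells express, so the class is defined by its rule and not by a single cell type. Abi3-/- mice gave 8 and 19 such cells, and Abi3+/+ mice gave 12 and 9. Beyond the genes used to define either class, 189 genes were tested, of which 9 (4.76%) were higher and 46 (24.3%) lower in neutrophils. Here too the adjustment covered the defining genes that passed the count filter. Calls near the threshold, such as Cxcl16 (edgeR adjusted p = 0.0478), may depend on that. The median log2 fold of all 189 was -2.32.

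C5ar1 had a read in 100, 91.3, 60 and 84.2% of neutrophils and in 0 of the 48 cells of the macrophage class (edgeR adjusted p = 0.0135). Il1rn was in 1 of the 48 cells and Il1b in 4 of them, and both were higher in neutrophils (log2 folds 10.43 ± 2.41 and 9.01 ± 2.48, edgeR adjusted p = 0.0263 and 0.0393).

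Among the other higher genes were Ccr1, Ccl6, Dusp1, Ctsd and Btg1. Ccr1 stood at 149 to 310.5 reads per 10000 in neutrophils and 5.40 to 16.9 in the macrophage class (log2 fold 2.81 ± 0.43, edgeR adjusted p = 0.00883). Dusp1, a phosphatase that switches off MAP kinases, was at 365 to 648 against 15.1 to 87 (log2 fold 2.20 ± 0.48, edgeR adjusted p = 0.0233). Ctsd, lower than in microglia, was higher than in the macrophage class (log2 fold 1.93 ± 0.36, edgeR adjusted p = 0.0137). Btg1, an antiproliferative gene, was at 501 to 607 against 46.9 to 149 (log2 fold 1.23 ± 0.31, edgeR adjusted p = 0.0311).

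Some genes that separated neutrophils from microglia did not do so here. Cd44 was in 77.8 to 87.5% of the macrophage class, about the share in neutrophils (log2 fold 0.29 ± 0.46, edgeR adjusted p = 0.656). Aqp9 and Cxcr4 missed the threshold (log2 folds 2.95 ± 1.22 and 4.22 ± 1.47, edgeR adjusted p = 0.110 and 0.0765). Ifitm2 did not pass (log2 fold 0.68 ± 0.42, edgeR adjusted p = 0.246), and Ifitm3 was lower in neutrophils (log2 fold -2.19 ± 0.45, edgeR adjusted p = 0.0186), though not in every mouse per 10000 reads.

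Among the 46 lower genes were genes of MHC class II. H2-Aa, H2-Eb1, H2-Ab1, H2-DMa and H2-DMb2, which load and present peptides to T cells, had no read in 97 neutrophils. They were in 33.3 to 100% of the macrophage class in each mouse, with edgeR adjusted p from 0.00883 to 0.0117. Cd74, the invariant chain, had a read in 1 of 97 neutrophils and in 75 to 83.3% of the macrophage class (log2 fold -14.48 ± 1.54, edgeR adjusted p = 0.00883). Lgals1, a galectin, Fn1, fibronectin, and the secreted factors Ccl17 and Tnfsf13 were also lower, each at 0 in neutrophils (edgeR adjusted p = 0.00883, 0.00883, 0.0170 and 0.0267). By list, 2 of 16 receptor genes were higher and 1 lower, and 3 of 12 cytokine genes were higher and 3 lower (Ccl9, Cxcl16 and Tnfsf13). Of 16 microbe-sensing genes 0 were higher and 3 lower. These counts stand beside 4.76% higher and 24.3% lower over all genes, and the medians of these 3 lists were -0.31, 1.68 and -0.91. Without Abi3-/- replicate 1 there were 24 calls in place of 55, and with cells over the read limit included there were 7, of which 5 were among the 55. Leaving S100a8 out and scaling by reads alone gave 25 higher and 21 lower genes and a median of -0.85, and none of the 55 changed sign.

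**Figure D4:**
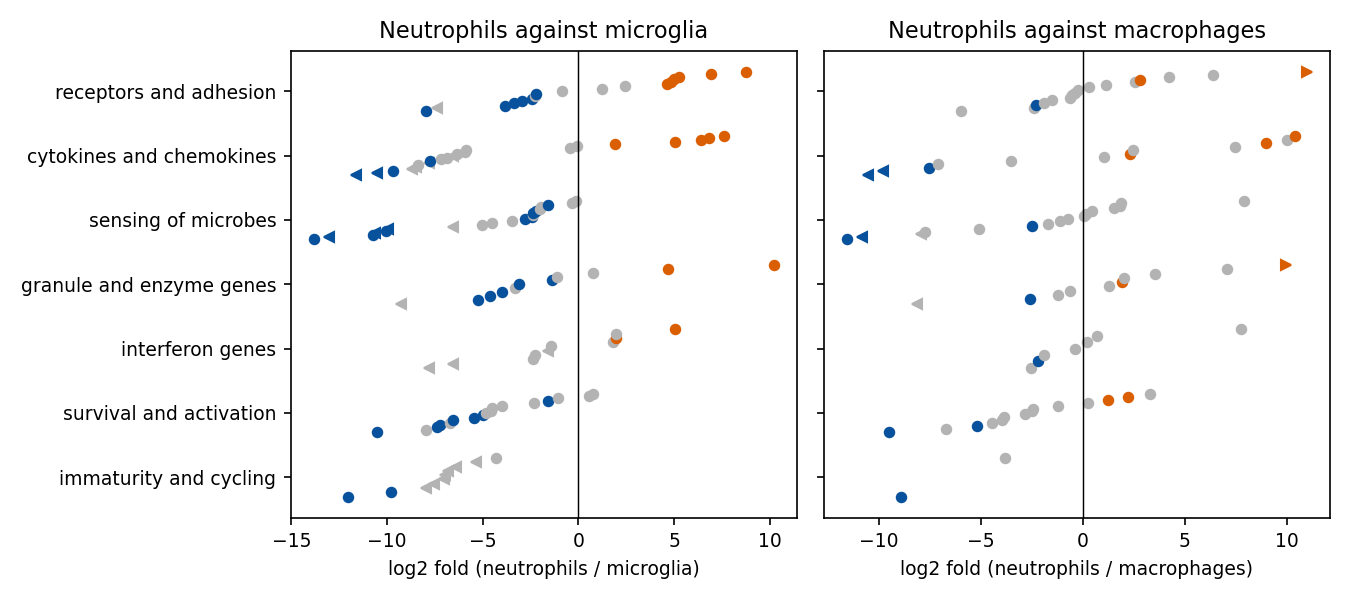
Each symbol is a listed gene that was tested, placed by its log2 fold in neutrophils against microglia (left) or the macrophage class (right). Orange and blue mark genes higher and lower at an adjusted p below 0.05, grey marks the others, and triangles mark genes at 0 in 1 class, placed as if that class held 3 reads. Of the receptor and adhesion genes 6 lie on the higher side against microglia, and no microbe-sensing gene does in either panel among those called.

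Between genotypes no gene of neutrophils passed the test. Of 144 genes tested, which include 7 of the rule, 0 (0.0%) were higher and 0 (0.0%) lower in Abi3-/- mice at an adjusted p below 0.05 in edgeR, with 2 genes outside the rule, Il15 and Cd14, at an unadjusted p below 0.05, and DESeq2 and limma each called 1. The median log2 fold was -0.08. The common dispersion was 1.69, and the sums of 2 of the mice came from 4 and 5 cells.

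Outside the rule, the smallest unadjusted p were those of Il15, Cd14, Gapdh and C1qa, each with an edgeR adjusted p of 0.986. Il15, a cytokine for lymphocytes, was at 19.3 and 12.5 reads per 10000 in the Abi3-/- mice and listed at 0 in both Abi3+/+ mice (edgeR unadjusted p = 0.0231). It came from 1 of 4 and 16 of 69 neutrophils, and in the Abi3+/+ mice 0 of 5 and 0 of 19 allow shares of up to 60 and 15.8%. Cd14, the co-receptor for lipopolysaccharide, was at 150.4 and 59.7 in Abi3-/- and 35.7 and 14.4 in Abi3+/+ mice (log2 fold 2.03 ± 0.64, edgeR unadjusted p = 0.0244). Trem1 was at 24 and 63.2 reads per 10000 in Abi3-/- and 122 and 118 in Abi3+/+ mice. Its reads helped to choose the cells, so these levels are a description with no test.

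Gapdh, a glycolytic enzyme, was at 253 and 201 against 159 and 121 reads per 10000 (log2 fold 0.64 ± 0.28). C1qa was at 14.6 and 2.06 in Abi3-/- mice and at 0 in both Abi3+/+ mice, from 5 positive neutrophils in all. For these 4 genes the genotypes did not overlap, yet none of the differences passed in edgeR after adjustment. Il15 was the gene that DESeq2 called (adjusted p = 0.00990). S100a9 overlapped, at 243 and 225 against 289 and 195. The Abi3-/- mice had a lower median depth per neutrophil, 16976.5 and 26727 reads against 39895 and 35138. With each cell thinned to 10000 reads, 126 genes were tested between genotypes and 0 were called. Il15, Cd14, Gapdh and C1qa kept their direction there. The part of depth in the printed levels was not tested otherwise.

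**Figure D5:**
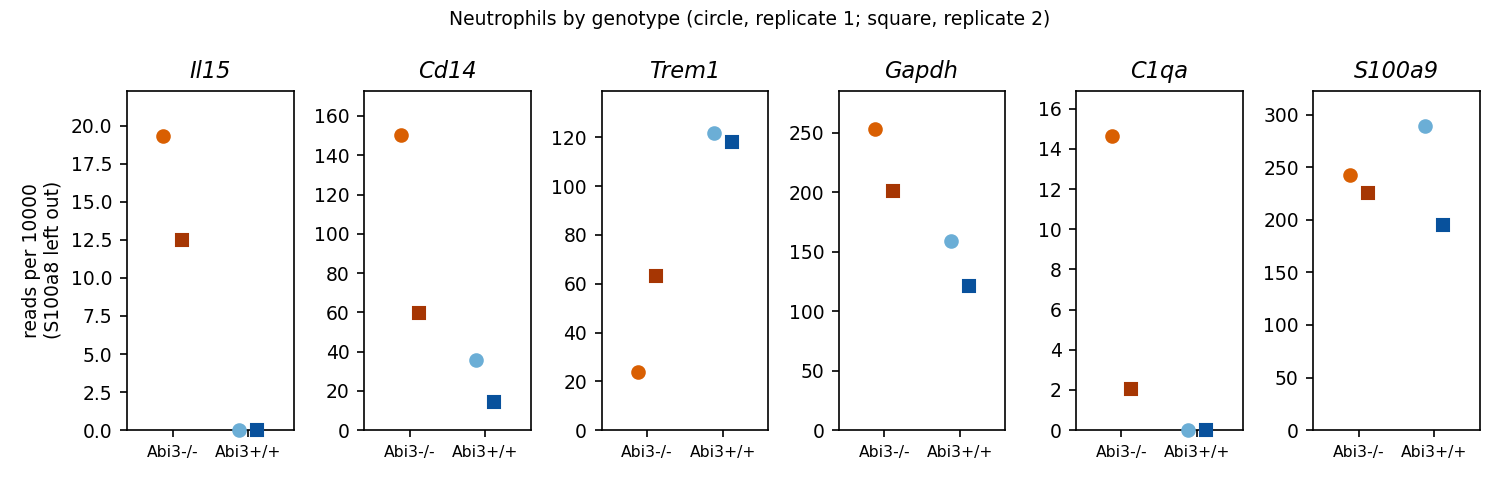
Reads per 10000 (S100a8 left out) in neutrophils of each mouse, for Il15, Cd14, Gapdh and C1qa, which had the smallest unadjusted p between genotypes outside the rule, and for Trem1 and S100a9, genes of the rule shown as a description. Circles are replicates 1 (4 and 5 neutrophils) and squares replicates 2 (69 and 19). Il15, Cd14, Gapdh and C1qa were picked by their p, so their separation by genotype is no result of its own. The genotypes overlap for S100a9.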

How the data were processed

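Per the labels and the study's methods, libraries were made with the BD Rhapsody Mouse Immune Response Panel. The files deposited hold counts, the reads of each panel gene in each cell, which the authors adjusted for errors in molecular identifiers by the distribution of their depths (DBEC) with the BD Rhapsody Targeted Analysis Pipeline and did not normalize, with mm10 as the genome build named in the submitters' processing notes. The aligner was not given in the sources used here. Cells with at least 40 genes and at most 59300 reads were kept here, and no doublet caller was used. The members and lists were chosen with earlier results of these data known. Counts were summed per mouse and class and tested with edgeR 4.0.16 (quasi-likelihood test, TMM, filterByExpr, Benjamini-Hochberg adjustment, threshold 0.05) in R 4.3.3, with the mouse as a block between classes. Between classes the adjustment ran over all genes that passed the count filter, those that define a class included, and an adjustment without them was not run. Standard errors were derived from the fold change and its F value. The mouse is the replicate, and every p reflects 2 mice per genotype or 4 mice per class. Where stated, genes at 0 in a class were set at 3 reads over that class.

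Named genes were the 8 genes of the rule and up to 10 higher and 10 lower called genes per class comparison, with the largest folds and the same direction per 10000 reads in every mouse. Between genotypes they were the 5 with the smallest p, since none was called, of which Trem1, a gene of the rule, is described with no test, and the others are listed genes, some of them chosen after their values were seen. DESeq2 1.42.0, limma 3.58.1, other scalings, no count filter, thinning to 10000 reads, stricter markers, clustering with Seurat 5.3.0 (10 principal components, resolution 0.8) and leaving out each mouse were alternatives. The scripts were tested on simulated data. The labels do not say that mice with the same number are paired. Some genes that met these rules are not reported here.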

Additional observations from a re-analysis of the deposited data

Results flagged for a closer look

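Outside the filtered data, 93 cells met the neutrophil marker rule but had more than 59300 reads, nearly as many as the 97 cells that were kept. Of 47 values tested for a mouse standing apart from the other 3, 2 did so. Genes at 0 in neutrophils of every mouse, such as H2-Aa and Tmem173, could not do so. A chance rate of about 1 in 20 therefore does not apply to all 47. The C1qa level in neutrophils was 14.6 reads per 10000 in Abi3-/- replicate 1 against 2.06, 0 and 0 in Abi3-/- replicate 2 and the Abi3+/+ mice (gap over range 0.860). It came from 1 of 4 neutrophils in that mouse. Cd74 was at 0.795 in Abi3-/- replicate 2, from 1 of 69 neutrophils, and at 0 in the other 3 mice (gap over range 1.0). That ratio is fixed at 1.0 whenever only 1 mouse has reads.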

How the results depend on the processing

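The higher share of neutrophils in Abi3-/- mice ranged from -0.190 to 1.17 percentage points when each mouse was left out, and turned without Abi3-/- replicate 2. It was 0.390 to 0.666 points under the other choices of cells. In edgeR on cells per class the log2 fold was 1.27 (adjusted p = 0.734), and 1.08 (adjusted p = 0.377) with a replicate block. Against microglia, 106 calls became 216 with DESeq2, 165 with limma, 227 with no replicate block (here the mouse, shared by its 2 classes), 62 in the 2 mice with most neutrophils and 10 to 97 without 1 mouse. Against the macrophage class, 55 calls became 108 with DESeq2, 100 with limma, 7 with no read limit, 21 in the 2 mice with most neutrophils and 24 to 51 without 1 mouse. Between genotypes 0 calls became 1 with DESeq2 (Il15), 1 with limma (Lgals9), 1 with the replicate block (Cxcl2) and 0 to 1 without 1 mouse (Lgals9 without Abi3+/+ replicate 2). Deviations of same-numbered mice correlated at -0.16, and a crossed replicate block gave 0 calls. The no-read-limit, S100a8-free and few-mice settings were chosen after seeing the data. The genes picked by largest fold or smallest p kept their sign in the comparison they were picked for, but many lost their call. Of those picked against microglia, 17 lost it without Abi3-/- replicate 2 and 3 kept it. Of those picked against the macrophage class, 16 lost it with no read limit and 3 kept it. Among other genes called against microglia, Fcer1g, Fth1, Gapdh and Junb changed sign with S100a8 left out and libraries scaled by their reads alone. The cause of these and the other changes was not tested. With 4 and 5 neutrophils in the mice numbered 1, a gene at 0 there allows shares of up to 75 and 60% (3 cells of the total).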

Other observations

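Qpct was at 0 in all neutrophils, yet it had a read in 48.5% of the microglia of Abi3-/- replicate 2, the mouse with most neutrophils, and in 1.95 to 2.64% of the microglia of the other 3 mice. Whether the error correction of each library bears on this was not tested.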
